A study of Homo sapiens with 36 samples.

Results

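The DNA replication machinery is described here through 44 genes that encode the proteins loading, starting and moving the replication fork, in HCT-116 cells with and without oxaliplatin (OXPT). The genes were taken by their symbols from a list that was chosen with earlier results of these data known. All 44 were found among the 62757 genes of the files and passed the filter on low counts, which kept 12356 genes. They fall into 7 roles: origin recognition (6 genes), licensing (9), origin firing and helicase activation (8), polymerases and primase (9), the sliding clamp and its loader (6), lagging strand processing (2) and fork protection (4).

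HCT-116 cells come from a human colorectal carcinoma. FBXW7 encodes the part of a ubiquitin ligase that binds its substrates. PolyA RNA was sequenced from WT cells and from a purchased FBXW7-/- line (KO), and 24 libraries form 8 groups of 3. KO cells received a control esiRNA (esiCT), an esiRNA to the deacetylase HDAC4 (esiHDAC4), or esiCT together with compound #11. This compound is a PROTAC that directs HDAC4 to degradation, and the study found that it degraded the other class IIa HDACs as well. The WT cells carried an esiRNA that the label entries give differently. Each of these 4 conditions was either left with solvent (untreated) or received OXPT at 50 µM for the last 24 h of 48 h. OXPT is a platinum drug that forms DNA adducts and crosslinks. The dose of #11 is 1 µM in the treatment entry and 10 µM in the description entry of the labels, and is not settled. A further 12 WT libraries, with opposite OXPT states in their label entries, entered no comparison. Nothing in the labels says whether the 3 libraries of a group came from separate cultures, so that p-values measure only the spread between these libraries.

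As background, replication starts in 2 stages that are kept apart in time. In G1 phase the origin recognition complex, CDC6 and CDT1 load the MCM2 to MCM7 ring onto DNA, which licenses the origin. In S phase the kinase CDC7 with its activator DBF4 fires the origin, CDC45 and the GINS complex turn the ring into a working helicase, and the polymerases follow, held on DNA by the PCNA clamp. Most of these genes are transcribed at the passage from G1 to S phase by E2F factors, and PCNA is also a well known target of p53.

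Promoters are shown first, with matches to E2F sites marked, since many of these genes are known E2F targets. The sequences are the 120 bases before the transcription start in RefSeq (GRCh38.p14), 5′ to 3′ on the strand of the gene. Capitals mark the E2F words TTTCCCGC, TTTGGCGC, TTTCGCGC or TTTGCCGC on either strand. PCNA was chosen as the gene that rose with OXPT, GINS2 and CDT1 as genes that fell in at least 1 comparison and carry the same word as PCNA, MCM7 and PRIM1 as the genes that fell in most comparisons, and MCM6 for its number of words.
PCNA, chr20:5126623-5126742, minus strand: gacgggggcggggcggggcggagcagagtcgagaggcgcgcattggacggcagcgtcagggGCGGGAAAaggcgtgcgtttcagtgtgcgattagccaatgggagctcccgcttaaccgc
GINS2, chr16:85688955-85689074, minus strand: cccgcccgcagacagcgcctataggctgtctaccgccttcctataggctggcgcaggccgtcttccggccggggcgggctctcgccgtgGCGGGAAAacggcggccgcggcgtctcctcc
CDT1, chr16:88803669-88803788, plus strand: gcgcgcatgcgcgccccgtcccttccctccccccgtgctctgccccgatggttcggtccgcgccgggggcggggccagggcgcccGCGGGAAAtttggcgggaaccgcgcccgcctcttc
MCM7, chr7:100101398-100101517, minus strand: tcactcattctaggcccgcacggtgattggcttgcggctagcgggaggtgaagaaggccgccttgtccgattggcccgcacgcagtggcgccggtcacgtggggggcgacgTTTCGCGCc
MCM6, chr2:135876444-135876563, minus strand: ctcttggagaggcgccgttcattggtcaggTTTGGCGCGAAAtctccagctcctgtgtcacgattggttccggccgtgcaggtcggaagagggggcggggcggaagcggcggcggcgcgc
PRIM1, chr12:56752324-56752443, minus strand: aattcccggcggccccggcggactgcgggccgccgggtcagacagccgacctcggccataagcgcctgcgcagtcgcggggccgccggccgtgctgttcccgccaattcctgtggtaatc
In these windows PCNA, GINS2 and CDT1 carry the word TTTCCCGC on the opposite strand, at 59 to 52, 31 to 24 and 35 to 28 bases before the start. The capitals of MCM6 hold 2 words that overlap on opposite strands, and a second such pair lies further upstream. PRIM1 has none of the 4 words in its window.

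Over the 250 bases before the start, 12 of the 40 promoters that could be matched held at least 1 of these words (30.0%), against 979 of all 35116 promoters in the table (2.79%) and 4.14% of the 13836 promoters of genes tested here. The 12 genes were MCM6 with 4 words, MCM7 with 2, and ORC3, CDT1, MCM3, GINS2, POLA1, POLA2, POLE, PCNA, RFC3 and LIG1 with 1 each. The CCAAT box, searched as CCAAT on both strands, was in 22 of the 40 (55.0%) and in 32.8% of the promoters of genes tested. The cell cycle homology region, searched as TTTGAA or TTCGAA on both strands, was in 1 of the 40 (2.5%) against 9.81% of the promoters of genes tested. Not matched were MCM4, MCM5, GINS4 and POLD3. These are matches of letters and not measured sites.

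The libraries held 10725966 to 20527222 counts (median 14510758). Of the markers for this cell type, the epithelial genes EPCAM (215 CPM or more), KRT8, KRT18, KRT19 and CDH1 were present, whereas the intestinal genes CDH17 and VIL1 were under 1 CPM, and of the 5 markers of blood, endothelium and fibroblasts only COL1A1 was above 2 CPM (25.1 to 77.6). The sum of these 5 markers was 25.3 to 54.5 CPM in untreated and 36.4 to 78.0 CPM in OXPT libraries, and its part in the results was not tested. FBXW7 counts over the whole gene were 15.4 to 18.1 CPM in KO esiCT untreated and 16.9 to 23.5 CPM in WT untreated, a readout that does not check the knockout. HDAC4 was at 8.80 to 14.9 CPM in KO esiHDAC4 untreated and at 14.0 to 24.9 CPM in KO esiCT untreated, so that these libraries overlapped. With OXPT it was at 3.33 to 4.19 CPM in KO esiHDAC4 and at 5.71 to 7.50 CPM in KO esiCT, without overlap.

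Several libraries numbered 3 stood apart in the replication genes. Relative to the mean of WT untreated, the median of the 44 genes on the log2 scale was 0.22, 0.32 and −0.28 in KO esiCT untreated libraries 1, 2 and 3, and 0.15, 0.33 and −0.51 in those of WT. With OXPT it was −0.35, −0.33 and −0.91 in KO esiCT and −0.50, −0.50 and −0.66 in WT. Within the untreated groups, 35 to 42 of the 44 genes were lower in library 3 than in the mean of libraries 1 and 2. In the KO esiCT, KO esiHDAC4 and WT groups, the difference of library 3 from the others also went with exon length over all 12350 genes with a length (Spearman −0.22 to −0.44), and less so over the 44 (−0.02 to −0.26). In KO #11 it was 0.25 untreated and −0.05 with OXPT over all genes. Unmapped reads were 22.3% in KO esiCT OXPT library 3 and 7.74% to 13.8% in the rest. The counts of the 44 genes falling with OXPT are therefore also given without the libraries numbered 3 (2 libraries a group, a choice made after seeing the data). They are given with the library number as a block too, since the numbers paired the libraries in each of the 4 OXPT comparisons. Other results are given in these ways only where stated.

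**Figure D1:**
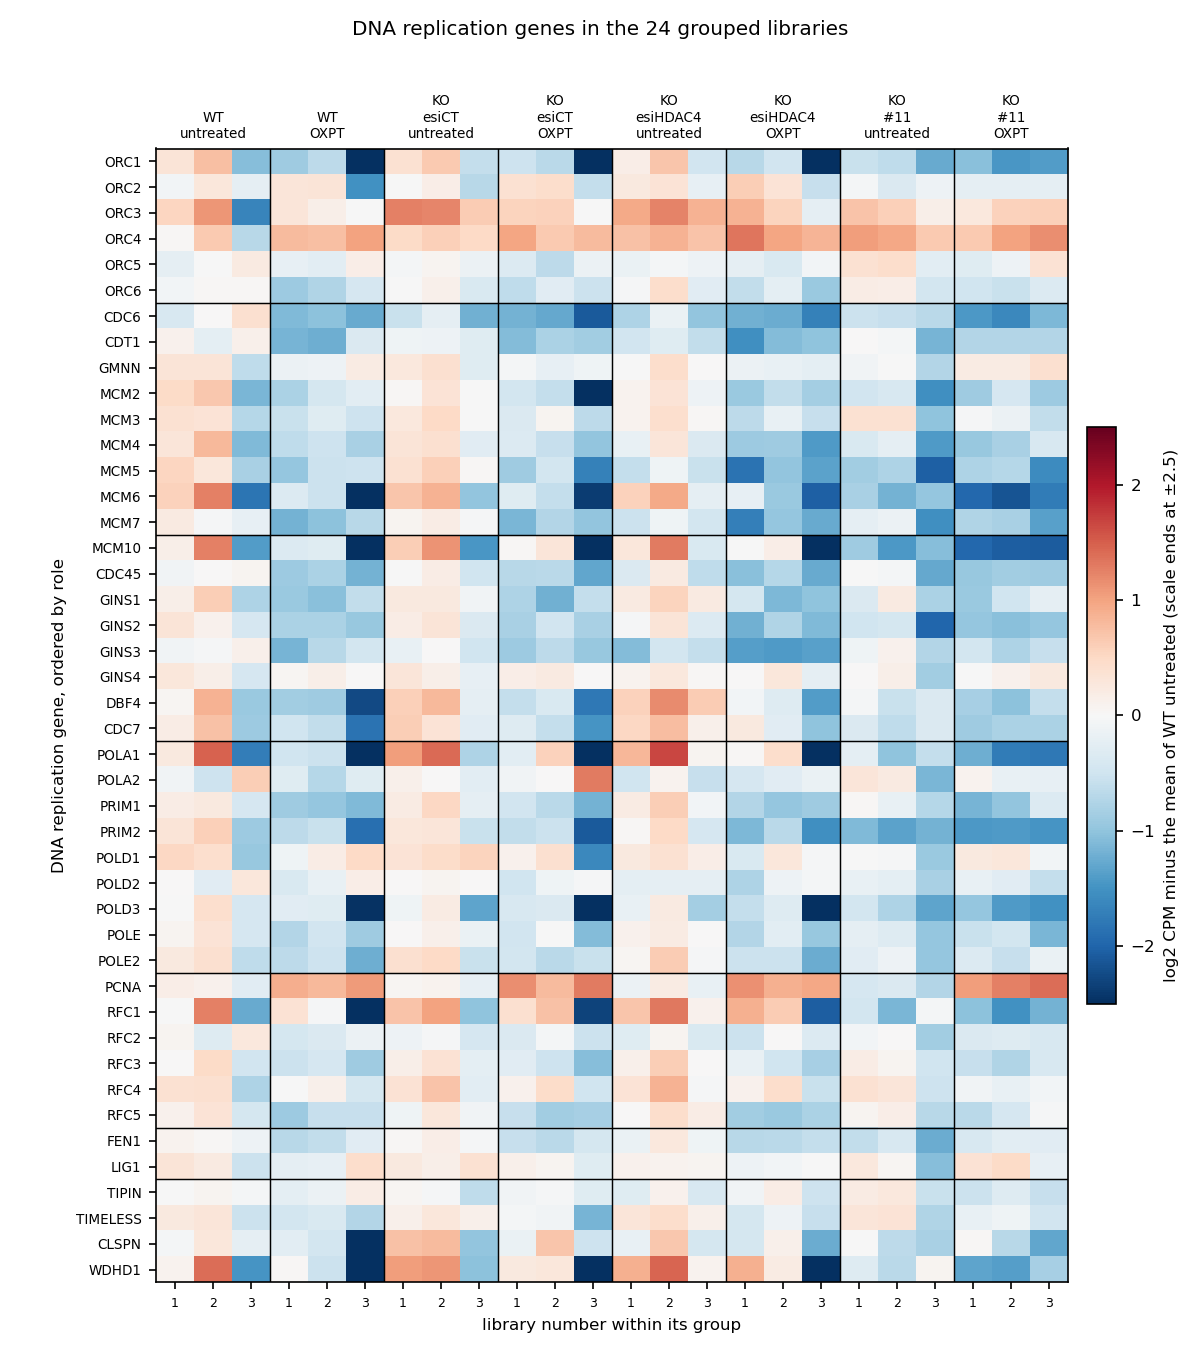
Level of each of the 44 replication genes (rows, ordered by role and separated by lines) in each of the 24 libraries (columns, 3 a group), as log2 CPM minus the mean of WT untreated; red is higher and blue lower, and the scale ends at ±2.5. PCNA is red in all 12 OXPT libraries, and most other rows turn blue with OXPT. The libraries numbered 3 are bluer than their neighbours in many rows, except in KO #11 with OXPT. There 20 of the 44 genes were lower in library 3 than in the mean of libraries 1 and 2.

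With OXPT a part of the replication genes fell and the gene of the clamp rose. In KO esiCT cells 7 of the 44 genes fell (15.9%), against 5.08% of all genes tested, and 1 rose, against 6.23%. A gene was called when its adjusted p was under 0.05 over all genes tested and its fold change over 1.5, by edgeR. In KO esiHDAC4 cells 6 fell, with 5.54% of all genes falling, and 1 rose, with 6.44% rising. In WT cells 6 fell, with 5.6% of all genes falling, and 1 rose, with 5.1% rising. In KO #11 cells 0 fell, with 3.57% of all genes falling, and 1 rose, with 5.94% rising. CDC6 was the 1 gene of the 44 that was lower there at an unadjusted p below 0.05, and by DESeq2 0 fell. In either direction 4 of the 44 and 2900 of the 12356 genes tested were at such a p there.

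PCNA was the gene that rose in each of the 4 comparisons, and the genes that fell were 11 in all. MCM7, the ring subunit, and PRIM1, the catalytic primase subunit, fell in 3 comparisons. CDC6, GINS1, RFC5 and FEN1 fell in 2, and CDT1, MCM5, CDC45, GINS2 and GINS3 in 1. The other 32 genes were called in no comparison, though most leaned the same way: 31 of the 44 had a lower value with OXPT in all 4 comparisons, and PCNA and ORC4 a higher one in all 4. The median log2 fold change of the 44 was −0.65 in KO esiCT, −0.72 in KO esiHDAC4, −0.25 in KO #11 and −0.72 in WT, against 0.01, 0.02, −0.00 and −0.06 for all genes. The median in KO #11 moved with single untreated libraries. It was −0.48 without untreated library 3, −0.16 without library 1 and −0.15 without library 2. Without all libraries numbered 3 the KO #11 median was −0.52, that of KO esiCT −0.69, that of KO esiHDAC4 −0.66 and that of WT −0.80.

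All 3 OXPT libraries lay below all 3 untreated ones for 20 of the 44 genes in KO esiCT (45.5%, with 14.8% of all genes tested), 22 in KO esiHDAC4 (50%, with 16.6%), 8 in KO #11 (18.2%, with 20.1%) and 12 in WT (27.3%, with 9.81%). In KO #11 that share was near the one for all genes. All 3 lay above for 2 genes in KO esiCT (4.55%, with 15.3% of all genes), 1 in KO esiHDAC4 (2.27%, with 18.8%), 3 in KO #11 (6.82%, with 22.4%) and 2 in WT (4.55%, with 11.5%). With the library number as a block, 15 of the 44 fell in KO esiCT (7.19% of all genes), 19 in KO esiHDAC4 (7.92%), 16 in WT (8.18%) and 0 in KO #11 (5.61%). The block fits 1 effect of the number over all 8 groups. The numbers did not pair #11 with esiCT libraries, which limits the block count for KO #11. Without the libraries numbered 3, 20 fell in KO esiCT (8.33% of all genes), 22 in KO esiHDAC4 (9%), 28 in WT (11.1%) and 12 in KO #11 (12.1%). Leaving out single libraries moved the first of these counts far. Without any 1 of KO esiCT untreated 1 or 2 or OXPT 1, 2 or 3, between 0 and 3 genes fell in KO esiCT. Without KO esiHDAC4 untreated 2, OXPT 1 or OXPT 3, between 1 and 3 fell in KO esiHDAC4. In WT the count was 1 to 4 without untreated 1 or 2 or any OXPT library, and 14 without untreated 3. In bulk RNA, fewer cells in S phase and less of these mRNAs in each cell cannot be told apart.

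**Figure D2:**
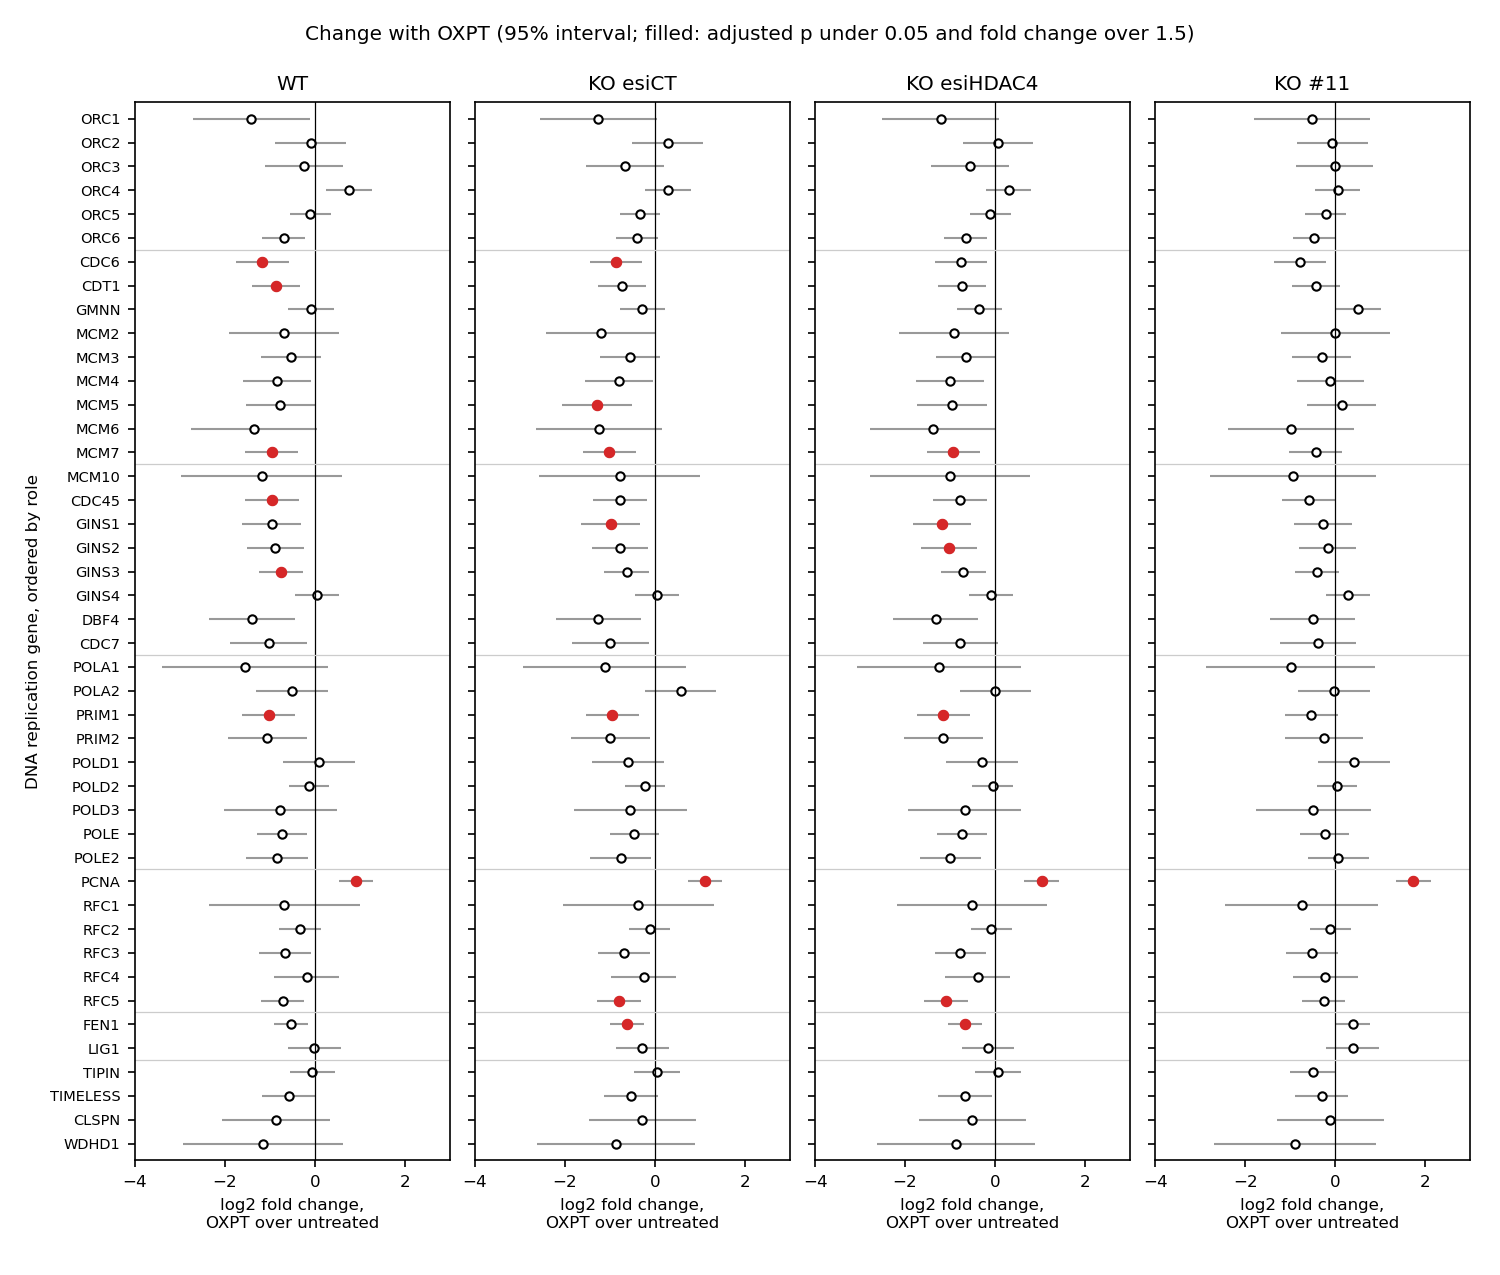
Log2 fold change of each replication gene with OXPT over untreated (x axis, points with 95% intervals) in WT, KO esiCT, KO esiHDAC4 and KO #11 cells, with genes ordered by role on the y axis; filled points passed the adjusted p and the fold threshold. PCNA is the filled point right of 0 in all 4 panels, and in KO #11 it is the only filled point.

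PCNA, the ring that holds polymerases on DNA and a hub for repair synthesis, ranked first of the 44 per length in every group. The length joins all annotated exons of a gene, 1403 bases for PCNA and 4960 for MCM7, so that this rank depends on the annotation. In WT cells PCNA was at 316, 304 and 231 CPM untreated and at 529, 496 and 585 CPM with OXPT. In KO esiCT cells it went from 292, 299 and 245 CPM to 628, 484 and 689 CPM. These libraries did not overlap. In KO esiHDAC4 cells it was at 252, 325 and 246 CPM untreated and at 620.1, 520.5 and 548 CPM with OXPT. In KO #11 cells it was at 209, 219.8 and 169 CPM untreated and at 582, 672 and 745 CPM with OXPT, and its untreated libraries lay below the untreated libraries of the other conditions. The fold change was 1.89 in WT (log2 0.92 ± 0.18, SE; adjusted p = 0.00236), 2.15 in KO esiCT (1.11 ± 0.18; adjusted p = 0.000493), 2.06 in KO esiHDAC4 (1.04 ± 0.18; adjusted p = 0.000773) and 3.35 in KO #11 (1.74 ± 0.19; adjusted p = 4.87e-06). The difference between the responses of #11 and esiCT cells was 0.63 ± 0.26 and did not pass the test (adjusted p = 0.605, unadjusted p = 0.0228, 95% interval 0.10 to 1.17).

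The clamp loader that opens PCNA, made of RFC1 to RFC5, had no call in the direction of PCNA. RFC5, a small subunit of the loader, was at 65.0, 85.2 and 65.8 CPM in untreated and 46.9, 38.2 and 39.2 CPM in OXPT libraries of KO esiCT. It fell in KO esiCT (log2 −0.80 ± 0.23, adjusted p = 0.0308) and in KO esiHDAC4 (−1.09 ± 0.24, adjusted p = 0.00415), and was −0.72 ± 0.23 in WT (adjusted p = 0.0525) and −0.25 ± 0.23 in KO #11. The unstranded column kept a median of 69.5% of its counts, since the gene shares exon sequence with a neighbour on the other strand. In KO esiCT it kept 70.0% to 73.0% untreated and 49.1% to 66.9% with OXPT. In KO esiHDAC4 it kept 71.0% to 75.6% and 61.3% to 67.4%, and in WT and KO #11 these ranges overlapped. The size of the fall in RFC5 thus depends in part on how the shared exons were counted. RFC1, RFC2, RFC3 and RFC4 were lower by sign in all 4 comparisons without a call, with RFC3 at −0.69, −0.77, −0.51 and −0.66 and RFC2 between −0.33 and −0.08.

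**Figure D3:**
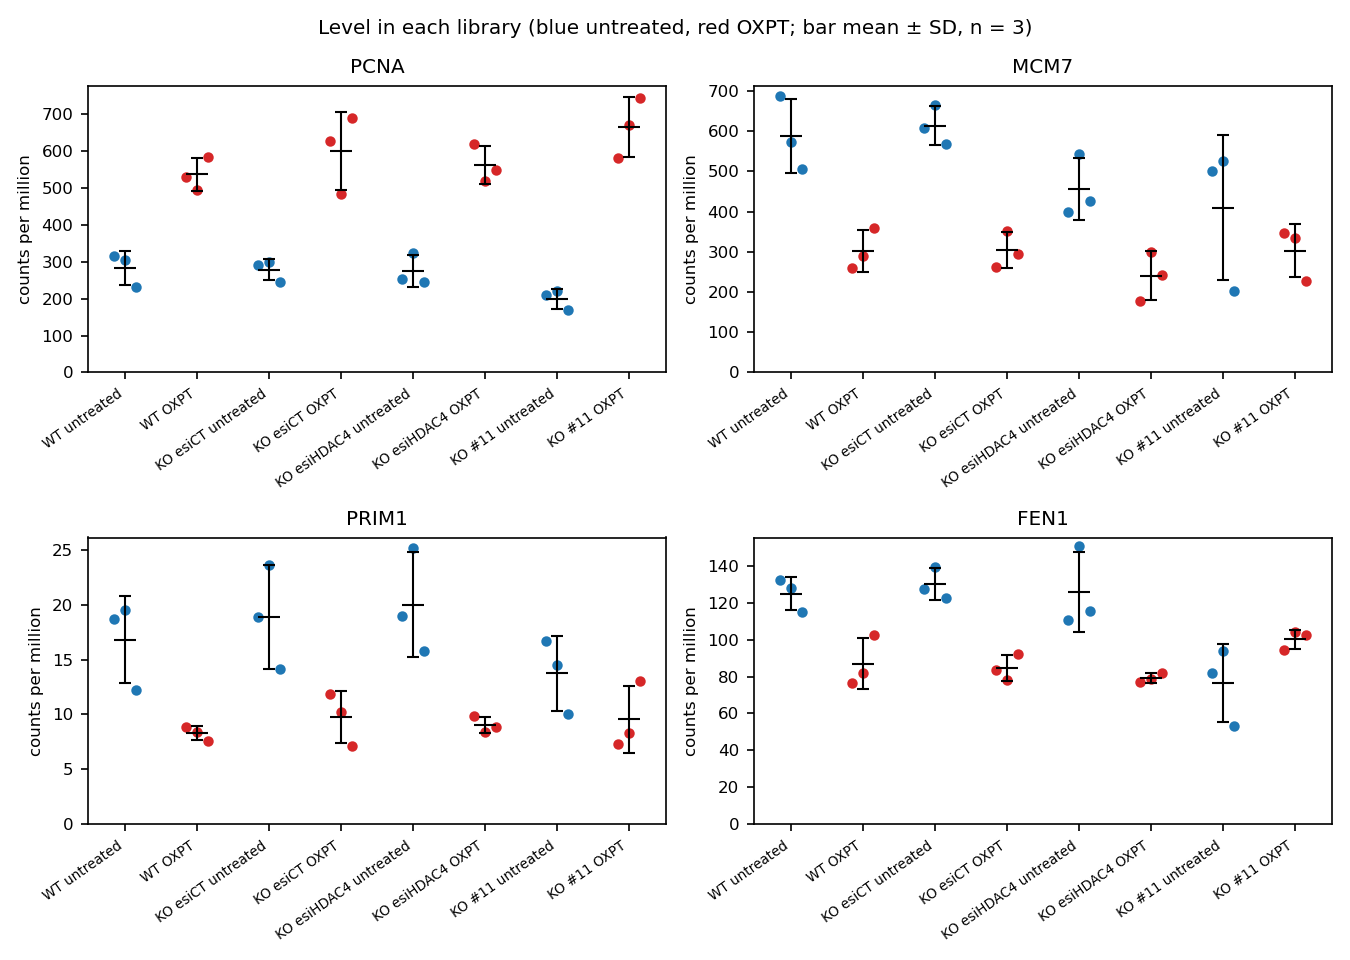
CPM of PCNA, MCM7, PRIM1 and FEN1 in each library (points, blue untreated and red OXPT, in 4 panels with axes from 0), with the mean ± SD of each group of 3. The PCNA points rise with OXPT in every pair of groups, MCM7 and PRIM1 fall without overlap in WT, KO esiCT and KO esiHDAC4, and FEN1 lies lower with OXPT there but higher in KO #11.

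Among the licensing genes, all 9 were lower by sign with OXPT in KO esiCT, KO esiHDAC4 and WT, with medians of −0.86, −0.91 and −0.85 on the log2 scale. MCM7 was at 687, 573 and 506 CPM in untreated and 259, 288 and 359 CPM in OXPT libraries of WT, and at 608.5, 664 and 569 CPM against 263, 352 and 295 CPM in KO esiCT. In KO esiHDAC4 it was at 400.0, 543 and 425.5 CPM untreated and at 178, 299.7 and 244 CPM with OXPT. It thus fell without overlap in these 3 conditions, by log2 fold changes of −0.96 ± 0.28 (adjusted p = 0.0322), −1.02 ± 0.28 (adjusted p = 0.0231) and −0.93 ± 0.28 (adjusted p = 0.0368). In KO #11 it was at 499.9, 526 and 202 CPM untreated and at 347, 335 and 227 CPM with OXPT, where library 3 was low in both states and the groups overlapped (−0.43 ± 0.28).

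CDC6 and CDT1, the loaders of the ring, fell in WT (−1.17 ± 0.28, adjusted p = 0.00952, and −0.86 ± 0.26, adjusted p = 0.0343). CDC6 also fell in KO esiCT (−0.86 ± 0.28, adjusted p = 0.0497), close to the threshold. GMNN, which encodes geminin, the inhibitor of CDT1, was at −0.28, −0.35, 0.51 and −0.08 in KO esiCT, KO esiHDAC4, KO #11 and WT, with no call. It was at 0.20 in KO #11 without the libraries numbered 3.

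Of the ring subunits, MCM5 fell in KO esiCT (−1.28 ± 0.37, adjusted p = 0.0292). MCM6 had the largest mean difference of the class (−1.24 over the 4 comparisons) but no call, and its libraries lay far apart. In WT it was at 89.9, 145 and 17.0 CPM untreated and at 47.7, 41.6 and 9.6 CPM with OXPT, and in KO esiCT at 98.6, 111 and 30.4 CPM untreated and at 49.2, 40.1 and 11.7 CPM with OXPT. In both conditions library 3 with OXPT was lowest and library 3 untreated lay below OXPT libraries 1 and 2. Without the libraries numbered 3, MCM6 fell in all 4 comparisons (−1.22 in KO esiCT, −1.29 in KO esiHDAC4, −1.12 in KO #11 and −1.38 in WT). MCM2, MCM3 and MCM4 had no call, with log2 fold changes of −1.20, −0.55 and −0.79 in KO esiCT.

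MCM2 counts carry a limit of their own. The gene shares 23.6% of its exon bases with a lncRNA on the other strand, so that the unstranded column kept a median of 48.7% of its counts over the 24 libraries, and in KO esiCT OXPT library 3 it kept 28 of 833 counts (3.36%). There MCM2 stood at 3.3 CPM, against 68.4 and 62.0 CPM in the other libraries of that group.

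Per length of annotated exons, the ring subunits were far from equal in RPKM although they form the ring in equal numbers. These lengths run from 3645 bases (MCM3) to 9852 (MCM4), so that the order of the subunits depends in part on the annotation. In KO esiCT untreated, MCM7 was at 124 ± 9.66 RPKM (SD, n = 3) and MCM3 at 75.2 ± 13.3, whereas MCM5 was at 29.5 ± 5.57, MCM4 at 22.4 ± 5.34, MCM2 at 21.9 ± 3.05 and MCM6 at 19.4 ± 10.5. MCM7 and MCM3 did not overlap there, and the ranges of MCM4, MCM5 and MCM6 overlapped. The MCM2 value comes from a column that kept 44.3% to 50.7% of the counts of that gene in these libraries, so that its place in the order is not settled. With OXPT MCM7 was at 61.2 ± 9.05 and MCM3 at 51.2 ± 13.1, and MCM5, MCM4, MCM2 and MCM6 were at 12.1, 12.9, 9.46 and 8.14 RPKM. PCNA was at 199 ± 20.7 RPKM untreated and 428 ± 75.0 with OXPT. Over the 44 genes the untreated KO esiCT levels ran from 0.735 to 199 RPKM with a median of 9.33. POLA2, a subunit of polymerase alpha, was at the low end, with 12006 bases of annotated exon as its length.

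**Figure D4:**
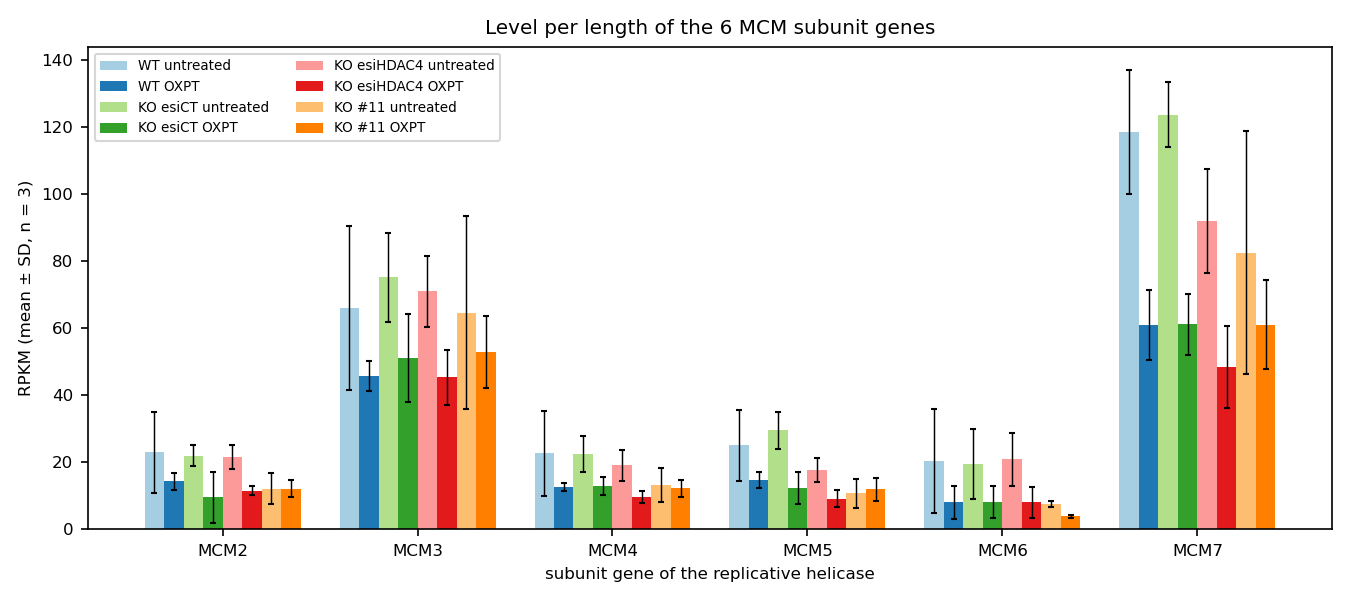
Level per length of annotated exons (RPKM, mean with SD of 3 libraries, y axis from 0) of the 6 genes of the MCM2 to MCM7 ring in the 8 groups. MCM7 and MCM3 stand above MCM4, MCM5 and MCM6 in each group, MCM2 is drawn from about 48.7% of its counts, and the OXPT bars are lower than the untreated bars except for MCM2 and MCM5 in KO #11.

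Of the 8 genes of firing and helicase activation, all but GINS4 were lower by sign with OXPT in KO esiCT, KO #11 and WT, and all 8 in KO esiHDAC4. GINS1, GINS2 and GINS3 belong to the 4-part GINS complex that joins CDC45 to the ring. GINS1 fell in KO esiCT (−0.99 ± 0.31, adjusted p = 0.0447) and KO esiHDAC4 (−1.18 ± 0.31, adjusted p = 0.0169), GINS2 in KO esiHDAC4 (−1.02 ± 0.30, adjusted p = 0.0306) and GINS3 in WT (−0.75 ± 0.24, adjusted p = 0.0458). CDC45 fell in WT (−0.96 ± 0.29, adjusted p = 0.0379). The fourth subunit, GINS4, was at 0.04, −0.09, 0.30 and 0.04 in KO esiCT, KO esiHDAC4, KO #11 and WT. Its unstranded counts were also reduced by an overlapping gene (54.2% kept), and for GINS3 the unstranded column kept 74.7%. DBF4, the activator of CDC7, had the largest mean difference of the class (−1.12). It was at 41.4, 48.0 and 23.4 CPM in untreated and at 18.0, 21.0 and 7.7 CPM in OXPT libraries of KO esiCT, which did not overlap (−1.26 ± 0.45, adjusted p = 0.0768). With the library number as a block it fell in KO esiCT, KO esiHDAC4 and WT (−1.30, −1.40 and −1.38). CDC7 itself was at −0.99 in KO esiCT and −1.03 in WT without a call, and MCM10, which helps to start the helicase, at −0.79 and −1.19 with a standard error of 0.86.

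Among the polymerases and primase, PRIM1 was the called gene. It was at 18.9, 23.6 and 14.1 CPM in untreated and at 11.9, 10.3 and 7.1 CPM in OXPT libraries of KO esiCT, and at 18.7, 19.5 and 12.2 CPM against 8.9, 8.4 and 7.6 CPM in WT. In KO esiHDAC4 it was at 19.0, 25.2 and 15.8 CPM untreated and at 9.8, 8.4 and 8.9 CPM with OXPT. It fell without overlap in KO esiCT by −0.95 ± 0.28 (adjusted p = 0.0334), in KO esiHDAC4 by −1.15 ± 0.28 (adjusted p = 0.0102) and in WT by −1.02 ± 0.28, with an adjusted p of 0.0227. In KO #11 the libraries overlapped, at 16.7, 14.5 and 10.0 CPM untreated and 7.3, 8.3 and 13.1 CPM with OXPT. The unstranded column kept 69.8% to 98.4% of the PRIM1 counts of a library (median 80.1%). PRIM2, the other primase subunit, was at −0.99, −1.15, −0.24 and −1.06 with no call, and was called lower in KO esiCT, KO esiHDAC4 and WT with the block.

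POLA1, the catalytic subunit of polymerase alpha, had the largest mean difference of its class (−1.23) and the widest scatter. In KO esiCT it was at 29.6, 38.3 and 8.4 CPM untreated and at 12.0, 21.5 and 1.2 CPM with OXPT, and these overlapped (−1.12 ± 0.87, adjusted p = 0.45). The leading strand polymerase genes POLE and POLE2 leaned lower by −0.46 and −0.76 in KO esiCT and by −0.73 and −0.84 in WT, with no call, and both fell in KO esiHDAC4 and WT with the block. The lagging strand polymerase genes POLD1 and POLD2 stayed between −0.59 and 0.43, POLD3 between −0.77 and −0.48, and POLA2 between −0.51 and 0.57, with no call.

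FEN1 cuts the flaps of Okazaki fragments and LIG1 seals them. FEN1 fell in KO esiCT, from 128, 139.8 and 123 CPM to 83.4, 78.1 and 92.5 CPM (−0.62 ± 0.18, adjusted p = 0.0307). It also fell in KO esiHDAC4, from 111, 151 and 116 CPM to 77.0, 78.5 and 82.1 CPM (−0.67 ± 0.18, adjusted p = 0.0201). In WT it was at 132, 128 and 115 CPM untreated and at 76.8, 81.7 and 103 CPM with OXPT, again without overlap but with no call (−0.52 ± 0.18, adjusted p = 0.0697). The order was the opposite in KO #11, where FEN1 was at 81.9, 94.2 and 53.2 CPM untreated and at 94.3, 104 and 102.5 CPM with OXPT (0.39 ± 0.18, adjusted p = 0.196). FEN1 was at 0.12 ± 0.16 in KO #11 and at −0.72 ± 0.16 in KO esiCT once the libraries numbered 3 were left out. LIG1 was at −0.28, −0.16, 0.39 and −0.01 with no call.

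None of the 6 origin recognition genes was called. ORC1, the subunit that comes and goes with the cell cycle, had the largest mean difference (−1.10). It was at 34.4, 41.4 and 17.2 CPM in untreated and at 18.2, 16.5 and 3.8 CPM in OXPT libraries of KO esiCT, which overlapped (−1.26 ± 0.62, adjusted p = 0.207). With the block it fell in KO esiCT, KO esiHDAC4 and WT (−1.39, −1.36 and −1.49). ORC4 was the second gene that was higher by sign in all 4 comparisons, at 25.1, 38.8 and 15.1 CPM untreated and 42.6, 41.4 and 49.6 CPM with OXPT in WT (0.75 ± 0.24, adjusted p = 0.0515), and it rose there with the block (0.78, adjusted p = 0.0333). ORC2, ORC3, ORC5 and ORC6 were between −0.69 and 0.29 with no call.

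In fork protection, TIMELESS and TIPIN form the pair that steadies the fork, CLSPN encodes the checkpoint adaptor claspin, and WDHD1 ties polymerase alpha to the helicase. None of the 4 was called. WDHD1 had the largest mean difference (−0.94), and in KO esiCT was at 27.5, 28.4 and 6.4 CPM untreated and 15.7, 16.0 and 2.0 CPM with OXPT, with library 3 lowest in both states. TIMELESS was at −0.53, −0.66, −0.30 and −0.57, CLSPN between −0.86 and −0.11, and TIPIN between −0.50 and 0.07. With the block TIMELESS fell in KO esiCT and KO esiHDAC4 (−0.60 and −0.67).

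The opposite course of PCNA and MCM7 can be read inside each library, where no scaling between libraries enters. The pair was chosen after these calls were seen, so the values below describe them and add no separate evidence. The 12 untreated libraries held 0.418 to 0.838 PCNA counts per MCM7 count (median 0.470) and the 12 OXPT libraries 1.38 to 3.49 (median 2.03). All 12 OXPT libraries lay above all untreated ones, those numbered 3 included.

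**Figure D5:**
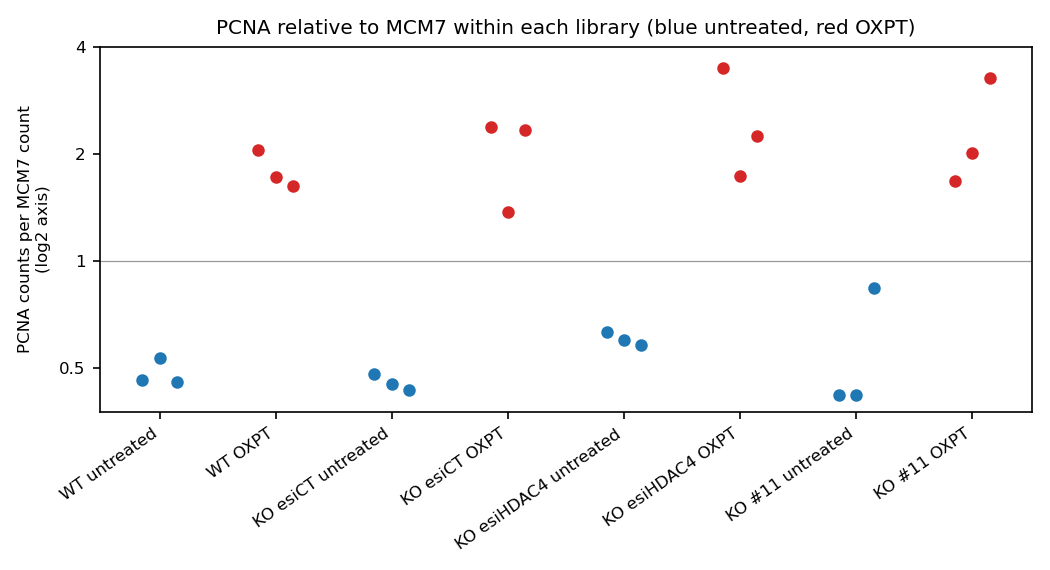
PCNA counts per MCM7 count in each library (y axis on a log2 scale, blue untreated, red OXPT) in the 8 groups (x axis). The untreated libraries lie between 0.418 and 0.838 and the OXPT libraries between 1.38 and 3.49, with no overlap.

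In cells without OXPT the replication genes leaned lower with compound #11, with no gene called. Of the 44 genes 39 were lower by sign in KO #11 untreated than in KO esiCT untreated, with a median log2 difference of −0.46 (all genes −0.00). Without #11 untreated library 3 that median was −0.26. All 3 libraries lay below all 3 esiCT libraries for 11 of them (25%, with 14.8% of all genes). By edgeR 0 of the 44 passed, against 0.51% of all genes. At an unadjusted p below 0.05 there were 6 of the 44, and 1705 of the 12356 genes tested, a similar share. By DESeq2 2 of the 44 were called, a count given without the share of all genes. MCM5 was at 92.8, 99.0 and 40.9 CPM with #11 and at 218, 253 and 172.5 CPM with esiCT (−1.47 ± 0.37, adjusted p = 0.0824), and FEN1 was at −0.77 ± 0.18 (adjusted p = 0.0589), GINS2 at −0.91 ± 0.30 (adjusted p = 0.156) and PRIM2 at −1.27 ± 0.42 (adjusted p = 0.157). The numbers did not pair the #11 with the esiCT libraries (correlations of their deviations −0.25 to 0.11 untreated), whereas the block fits 1 effect of the number over all groups. With the block these 4 genes fell (1.08% of all genes), and these calls rest on an effect that the #11 libraries did not share with esiCT. Without the libraries numbered 3, 15 of the 44 fell (7.51% of all genes), among them MCM10 (−2.04), POLA1 (−1.83), MCM6 (−1.78), RFC1 (−1.63) and WDHD1 (−1.56).

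With OXPT in both, #11 and esiCT cells differed less, by a median of −0.03 over the 44 genes with 0 calls (0.121% of all genes called). At an unadjusted p below 0.05 there were 0 of the 44 and 1264 of the 12356 genes tested, and by DESeq2 0 of the 44 were called. Without the libraries numbered 3, 8 of the 44 were lower with #11 (7.05% of all genes), namely ORC2, MCM6, MCM10, POLA1, PRIM2, POLD3, RFC1 and WDHD1. The interaction of #11 and OXPT was above 0 for 36 of the 44, with a median of 0.27, and 0 were called (0% of all genes). Its largest values were 1.43 ± 0.52 for MCM5 and 1.01 ± 0.26 for FEN1 (adjusted p = 0.544 and 0.329). At an unadjusted p below 0.05 there were 4 of the 44 (GMNN, MCM5, PCNA and FEN1) and 863 of the 12356 genes tested. By DESeq2 1 was called. The median was 0.09 without #11 untreated library 3, 0.48 without esiCT untreated library 3, and 0.07 without the libraries numbered 3. These 3 contrasts share esiCT and #11 libraries, so their values are not independent of each other.

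No replication gene was called between genotypes or with HDAC4 silencing. Between KO esiCT and WT, untreated, the median was 0.06 and 0 of the 44 were called (0.291% of all genes). CDC6 at −0.64 ± 0.28 was the 1 gene of the 44 at an unadjusted p below 0.05, with 709 of the 12356 genes tested. With OXPT the median was 0.05 and 0 were called (0.138%). POLA2 at 0.98 ± 0.38 was the 1 gene of the 44 at such a p, with 667 of all genes tested. Since the esiRNA of the WT libraries is not settled, genotype and esiRNA cannot be told apart there. Between esiHDAC4 and esiCT the median was 0.00 untreated and −0.06 with OXPT. In either, 0 genes were called (0.00809% and 0% of all genes). At an unadjusted p below 0.05 there were 0 untreated and 2 with OXPT (GINS3 and POLA2), with 394 and 380 of all genes tested. These tests do not show that levels were equal: for MCM7, for example, the untreated difference was −0.43 with a 95% interval of −1.01 to 0.16. The interactions of genotype and of esiHDAC4 with OXPT had medians of 0.08 and −0.08 over the 44, with 0 calls in each and 0% of all genes called in both. At an unadjusted p below 0.05 there were 0 of the 44 in each, with 201 and 19 of all genes tested. DESeq2 called 0 of the 44 in these 6 comparisons.

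The 12 genes with an E2F word and the 28 matched genes without one had the same median response to OXPT. The median of the mean log2 fold change over the 4 comparisons was −0.60 in both sets, with a range of −1.24 (MCM6) to 1.20 (PCNA) among the genes with a word and of −1.12 to 0.35 among those without. PCNA, GINS2 and CDT1 share the word shown above, and PCNA rose where GINS2 (KO esiHDAC4) and CDT1 (WT) fell. GINS2 and CDT1 were chosen because they fell and carry this word, so that the contrast adds no evidence. Only exact words in 1 promoter per gene were counted, so that a gene without one can still have an E2F site. The part of E2F in these responses was not tested.

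Gene length went with the OXPT response over all genes. Across all 12350 genes with a length, longer genes had lower log2 fold changes with OXPT (Spearman −0.34 to −0.39 with the span of the gene in the 4 comparisons). Over the 44 the coefficients were −0.03 in KO esiCT, −0.07 in KO esiHDAC4, −0.27 in KO #11 and −0.10 in WT. Genes within a library are not independent, and these are descriptions.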

How the data were processed

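The authors deposited raw read counts per gene for 36 polyA RNA-seq libraries, with unstranded, forward-strand and reverse-strand columns. The submitters' processing notes name Trimmomatic 0.39, STAR 2.7.11a and hg38; the methods of the study describe a salmon and DESeq2 route for the tested values, so these counts are another route. The unstranded column was used, since the reverse and forward columns were nearly equal (ratio 1.00 to 1.02). Gene names and exon lengths came from GENCODE 44 (62639 of 62757 identifiers matched), promoters from RefSeq.

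A gene entered the tests when the mean count of any group reached 64. Counts were fitted with edgeR 4.0.16 in R 4.3.3 by the quasi-likelihood F test, after TMM scaling (factors 0.789 to 1.10), with 1 coefficient per group over 24 libraries and 13 comparisons. A gene was called when its p, adjusted by Benjamini-Hochberg over the 12356 genes, was below 0.05 and its fold change exceeded 1.5. Standard errors come from dividing the log2 fold change by the root of F. CPM are TMM-scaled, and RPKM are CPM per kilobase of all annotated exons of a gene, with overlaps joined. The scripts were tested on simulated data. DESeq2 1.42.0, RLE scaling, other filters and columns, and leaving out libraries were alternatives.

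The library numbers paired the libraries in 8 of 10 comparisons of groups (correlations of deviations all over 0.1; #11 against esiCT was the exception, down to −0.25). Named with library values are genes called in at least 3 OXPT comparisons without overlap, the gene with the largest mean difference of each role and genes called against their role. The members and lists were chosen with earlier results of these data known. Libraries of a group differed beyond counting noise (chi-square per degree of freedom 8.31 or more in all 24 pairs).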

Additional observations from a re-analysis of the deposited data

Results flagged for a closer look

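In 2 of the 44 replication genes the OXPT libraries lay below all untreated libraries in some conditions and above all of them in KO #11. In KO #11 all OXPT libraries lay above for 3 of the 44 (FEN1, GMNN and PCNA) and for 22.4% of all genes tested. FEN1 was below in KO esiCT (log2 −0.62), KO esiHDAC4 (−0.67) and WT (−0.52) and above in KO #11 (0.39). The difference between the #11 and esiCT responses of FEN1 was tested as an interaction, 1.01 ± 0.26 with an edgeR adjusted p of 0.329. In KO #11 untreated, FEN1 library 3 was the lowest of the 24 libraries (53.2 CPM). Without the libraries numbered 3, FEN1 was at 0.12 ± 0.16 in KO #11 (edgeR adjusted p = 0.594) and at −0.72, −0.74 and −0.70 in KO esiCT, KO esiHDAC4 and WT, and the interaction was 0.84 ± 0.22 (adjusted p = 0.0691).

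GMNN was below in KO esiHDAC4 (−0.35) and above in KO #11 (0.51). The difference between these 2 conditions was not tested. Against esiCT the interaction with #11 was 0.79 ± 0.34 (edgeR adjusted p = 0.655). GMNN without the libraries numbered 3 was at 0.20 ± 0.16 in KO #11 (adjusted p = 0.373) and at −0.39 in KO esiHDAC4.

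Outside the comparisons, 6 of the 12 WT libraries with conflicting label entries for OXPT held more PCNA counts per MCM7 count than any of the 12 untreated libraries. Over these 12 libraries the value ran from 0.520 to 3.24 with a median of 0.872. It was 0.762 to 3.24 (median 1.89) in the 6 with OXPT in the title and 0.520 to 0.956 (median 0.611) in the 6 with OXPT in the treatment entry. These ranges overlapped through the libraries at 0.762 and 0.956, which lay on either side of the highest untreated value (0.838). The remaining libraries were at 1.58 or more with OXPT in the title and at 0.788 or less with OXPT in the treatment entry. No OXPT state is drawn from it.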

How the results depend on the processing

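Numbers of genes falling with OXPT are given here in the order KO esiCT, KO esiHDAC4, KO #11 and WT, for which they were 7, 6, 0 and 6. They became 15, 19, 0 and 16 with the replicate block, 11, 14, 1 and 18 with no count filter, 1, 10, 5 and 0 in fits of only the groups compared, and 20, 22, 12 and 28 without the libraries numbered 3. DESeq2 gave 14 in KO esiHDAC4 and 12 in WT, and the reverse-strand column 10 in each. Leaving out 1 library at a time gave 0 to 9, 1 to 13, 0 to 2 and 1 to 14. The number of genes rising in WT was 1, and 2 with DESeq2 or the block, 0 in the fit of only the groups compared, and 1 to 2 on leaving out 1 library. For #11 against esiCT, untreated, where 0 were called, 2 were with DESeq2, 5 with no count filter, 4 with the block, 2 in the fit of only the groups compared, 15 without the libraries numbered 3, and 0 to 2 on leaving out 1 library; with OXPT 4 were called with no count filter and 8 without the libraries numbered 3. DESeq2 called 1 gene in the interaction of #11 and OXPT. For the block and for the fits without the libraries numbered 3, the shares of all genes called are given above. For the other settings they are not given, so that those counts cannot be set against all genes. The block fits 1 effect of the library number over all 8 groups, which limits its counts for KO #11. The causes were not tested.

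Of the 23 calls in the 4 OXPT comparisons, 0 reversed under any of 33 alternatives, but only 4 were called under all of them, 3 of these for PCNA. In fits of only the groups compared 10 of the 23 were still called, with no count filter 18 and with the reverse-strand column 19. PCNA kept all of its 4 calls except in WT when only the groups compared were fitted (adjusted p = 0.171). Medians of the 44 genes moved by less than the SD between replicates (0.31), which is wide beside the smaller ones. On leaving out 1 library the median with OXPT in KO #11 (−0.25) ran from −0.48 to −0.15, that of #11 against esiCT, untreated (−0.46), from −0.61 to −0.26, and that of their interaction (0.27) from 0.09 to 0.48. The medians of the genotype and esiHDAC4 comparisons and their interactions, and of #11 against esiCT with OXPT, took both signs. The block changed no call in the comparisons of genotype and of esiHDAC4 or in the interactions. With 3 libraries a group, single genes such as MCM6, POLA1 and WDHD1 had standard errors of 0.67 or more in the OXPT comparisons.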

Other observations

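Of 38 other genes of replication, among them the RPA subunits that coat single-stranded DNA, histone chaperones and origin factors, 36 were tested. In KO esiCT 3 fell with OXPT, in KO esiHDAC4 5, in KO #11 1 and in WT 5, and 1 rose, LRWD1 in KO #11 (0.69 ± 0.21, edgeR adjusted p = 0.0431). Of all genes tested, 5.08%, 5.54%, 3.57% and 5.6% fell in these comparisons and 5.94% rose in KO #11. TICRR, which brings CDC45 to origins, and ASF1B, a chaperone of histones H3 and H4, fell in KO esiCT, KO esiHDAC4 and WT without overlap, TICRR by log2 fold changes of −1.23, −1.42 and −1.68 and ASF1B by −0.89, −0.91 and −0.75. RECQL4 fell in KO esiCT and WT (−0.85 and −0.83), and RPA3, the smallest subunit of RPA, in KO esiHDAC4 and WT (−1.11 and −0.98). CHAF1A fell in WT (−0.95), DBF4B and DSCC1 in KO esiHDAC4 (−0.88 and −0.99), and RNASEH2B, a subunit of the nuclease that removes ribonucleotides from DNA, in KO #11 (−0.72). These genes are named after their values were seen. The median log2 fold change of the 36 was −0.47, −0.44, −0.25 and −0.53 in KO esiCT, KO esiHDAC4, KO #11 and WT.

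Several of the 44 genes have copies annotated as pseudogenes, with 3 for PCNA, 3 for DBF4 and 1 each for FEN1, ORC1, POLD2, RFC3, RFC5 and TIPIN. The deposited counts tally reads that mapped to several places apart from the genes. Reads that fit a copy equally well are therefore missing from these values, which are uncertain to that extent.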
